A study of Homo sapiens with 18 samples.

Results

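A set of 10 genes that mark epithelial or mesenchymal identity was followed across 3 knockdowns in 786-O cells: the simple-epithelium keratins KRT7, KRT8, KRT18 and KRT19, the 14-3-3 protein SFN, the intermediate filament gene VIM, the cadherin gene CDH2, and the transcription factor genes SNAI2, ZEB1 and TWIST2. Their values were found by gene name, and the genes were chosen with earlier results of these data known. All 10 were among the 58735 genes listed for the RBCK1 and the ANKRD35 knockdowns and among the 29928 symbols listed for the MITD1 knockdown. 786-O is a long-established human cell line from a clear cell renal carcinoma, and it lacks functional VHL. The series title puts RBCK1, an E3 ubiquitin ligase, above ANKRD35, MITD1 and ANXA1 and links them to the response to the kinase inhibitor sunitinib. The labels give 6 groups, each of 3 libraries. Knockdown of RBCK1 (shRBCK1) is set against shcontrol, knockdown of ANKRD35 (siANKRD35) against sicontrol_for_siANKRD35, and knockdown of MITD1 (siMITD1) against sicontrol_for_siMITD1. No drug and no time after knockdown are named, and all groups were grown in RPMI-1640 with serum. The value columns of the siANKRD35 libraries say shRNA where the sample titles say si, so the reagent is uncertain there. Nothing in the labels says whether the 3 libraries of a group came from separate cultures, so p-values reflect the spread between the libraries as sequenced, and that spread may be technical. Each pair of groups has its own table of FPKM (fragments per kilobase, scaled by library size), normalized separately, and every test was made within a table.

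Keratin filaments are built from pairs of a type II keratin, such as KRT7 and KRT8, and a type I keratin, such as KRT18 and KRT19. KRT8 and KRT18 are the usual pair of simple epithelia, renal tubules included, whereas vimentin forms the filaments of mesenchymal cells and is also made by many renal carcinoma lines. Epithelial cells that take on mesenchymal features typically lose the E-cadherin gene CDH1, gain N-cadherin, the product of CDH2, and express repressors of the SNAI, ZEB and TWIST families, which bind E-box sequences in epithelial promoters.

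The SFN and VIM promoters are shown because SFN had the largest change among these 10 genes and VIM is the mesenchymal filament set beside the keratins. Both sequences are the 250 bases before the RefSeq start on GRCh38.p14, and capitals mark the E-box CAGGTG or its reverse complement CACCTG, searched on both strands. SFN lies on chr1:26862899-26863148, plus strand, and VIM on chr10:17227991-17228240, plus strand.
SFN: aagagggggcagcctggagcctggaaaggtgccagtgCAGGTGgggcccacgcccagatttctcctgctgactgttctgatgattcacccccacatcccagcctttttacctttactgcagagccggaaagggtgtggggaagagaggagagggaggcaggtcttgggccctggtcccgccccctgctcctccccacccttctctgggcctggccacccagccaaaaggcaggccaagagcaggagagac
VIM: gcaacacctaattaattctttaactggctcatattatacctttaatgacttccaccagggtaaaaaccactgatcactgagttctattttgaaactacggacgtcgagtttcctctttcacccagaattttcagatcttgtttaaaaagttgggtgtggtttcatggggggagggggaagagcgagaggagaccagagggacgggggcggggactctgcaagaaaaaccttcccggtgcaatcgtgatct
The SFN window holds 1 CAGGTG, which begins 213 bases before the start, and the VIM window holds neither form. Of 35116 RefSeq promoter windows of this length, 6143 (17.5%) hold at least 1. The VIM start used by RefSeq lies within 50 bases of 1 of 4 coding transcript starts in GENCODE 29. Promoter sequence was found for 6 of the 10 genes. Among these, the windows of KRT8, TWIST2 and CDH2 hold neither form. ZEB1 has several windows. In a window of ZEB1 CAGGTG begins 57 bases before the start, and in another CACCTG and CAGGTG begin 242 and 85 bases before it. The remaining ZEB1 windows hold neither form. The RefSeq start lies within 50 bases of 1 of 9 coding transcript starts for KRT8 and 0 of 2 for TWIST2. For CDH2 it is 0 of 5 in either window. Of the epithelial genes only SFN and KRT8 had a window. Whether the motif divides epithelial from mesenchymal genes therefore cannot be told from these windows.

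The targeted genes were low in their knockdowns. RBCK1 averaged 31.9 ± 1.04 FPKM in shRBCK1 libraries and 480.3 ± 16.0 FPKM in shcontrol libraries (SD, n = 3 each). The shcontrol level was itself far above that of the other controls. RBCK1 averaged 70.8 ± 2.44 FPKM in the controls of the ANKRD35 knockdown and 65.5 ± 0.96 in those of the MITD1 knockdown. These groups were normalized separately, and the reason was not tested. ANKRD35 had 0, 0 and 2 reads in the siANKRD35 libraries, against 727.4 ± 35.4 FPKM in their controls. MITD1 averaged 2.71 ± 0.303 FPKM in siMITD1 libraries and 7.47 ± 0.336 FPKM in their controls. ANXA1, the end of the axis in the title, averaged 112.2 ± 4.43 FPKM in shRBCK1 and 144.6 ± 1.26 in shcontrol libraries, 177.3 ± 30.7 in siANKRD35 and 144.8 ± 5.08 in their controls, and 114.9 ± 1.47 in siMITD1 and 134.6 ± 4.73 in theirs. By limma it fell with the RBCK1 and MITD1 knockdowns (log2 changes -0.36 and -0.23) and was not called with the ANKRD35 knockdown (0.28, adjusted p = 0.116). That value was 0.14 without siANKRD35 replicate 2 (adjusted p = 0.0541), -0.10 with quantile normalization, and 0.20 with the length and GC correction, where it was called (adjusted p = 0.0197). Read totals worked out from FPKM and gene length were 16346478 to 18648246 for the libraries of the RBCK1 table and 17502646 to 19034974 for those of the ANKRD35 table. For the MITD1 table they were 12704600 to 13889185, over the genes whose reads could be recovered.

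The 6 libraries of the ANKRD35 table stood apart from the other 12, although all are labelled 786-O. Among the 10 genes, SNAI2 averaged 1.11 FPKM in the controls of the ANKRD35 knockdown, against 17.4 in shcontrol and 20.6 in the controls of the MITD1 knockdown. KRT18 averaged 341.8 FPKM in those same controls, against 103 and 64.7. TWIST2 averaged 4.30 and 3.10 FPKM in the controls of the ANKRD35 and MITD1 knockdowns and 0.022 in shcontrol. Further genes, chosen after their values were seen, differed as widely. MMP2, a matrix metalloprotease, and CDH6, a kidney cadherin, were listed at 0 in all 6 libraries of the ANKRD35 table. In the other tables MMP2 averaged 99.4 FPKM in shRBCK1 and 70.9 in shcontrol libraries, and 80.6 in siMITD1 and 141.7 in their controls. The neuronal filament gene INA averaged 21.6 FPKM in siANKRD35 libraries and 20.7 in their controls, and had at most 1 read in any other library. ANKRD35 itself had at most 2 reads in any library of the RBCK1 and MITD1 tables. PAX8, a kidney lineage factor, was present in all 6 groups, at means of 18.7 to 45.9 FPKM. Epithelial genes differed in both directions. EPCAM and DSP averaged 20.1 and 6.95 FPKM in the controls of the ANKRD35 knockdown, against 0.60 and 0.068 in shcontrol. SPINT2 and CD24 averaged 0.243 and 15.5 FPKM in the controls of the ANKRD35 knockdown, against 14.2 and 124.2 in shcontrol. CDH1, the epithelial cadherin, averaged at most 0.556 FPKM in any group, and the carbonic anhydrase gene CA9 averaged at most 0.416. Though low, CDH1 differed within the ANKRD35 table. The siANKRD35 libraries had 0.0753, 0.0965 and 0.0271 FPKM, against 0.540, 0.596 and 0.530 FPKM in their controls. These groups did not overlap, and the ratio of 21 reads to 191 was 0.118 after scaling for depth. Elsewhere CDH1 had 4 reads in shRBCK1 and 4 in shcontrol libraries, and 10 in siMITD1 libraries and 15 in their controls. Whether the libraries of the 3 tables come from the same cells was not tested, and no level was tested across tables.

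A library within the siANKRD35 group also stood apart. Replicate 2 had the lowest KRT7, KRT8, KRT18, KRT19 and SFN of its group and the highest VIM, CDH2 and SNAI2. Values without it are given for the called genes, the ratios and the related gene lists of that knockdown.

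**Figure D1:**
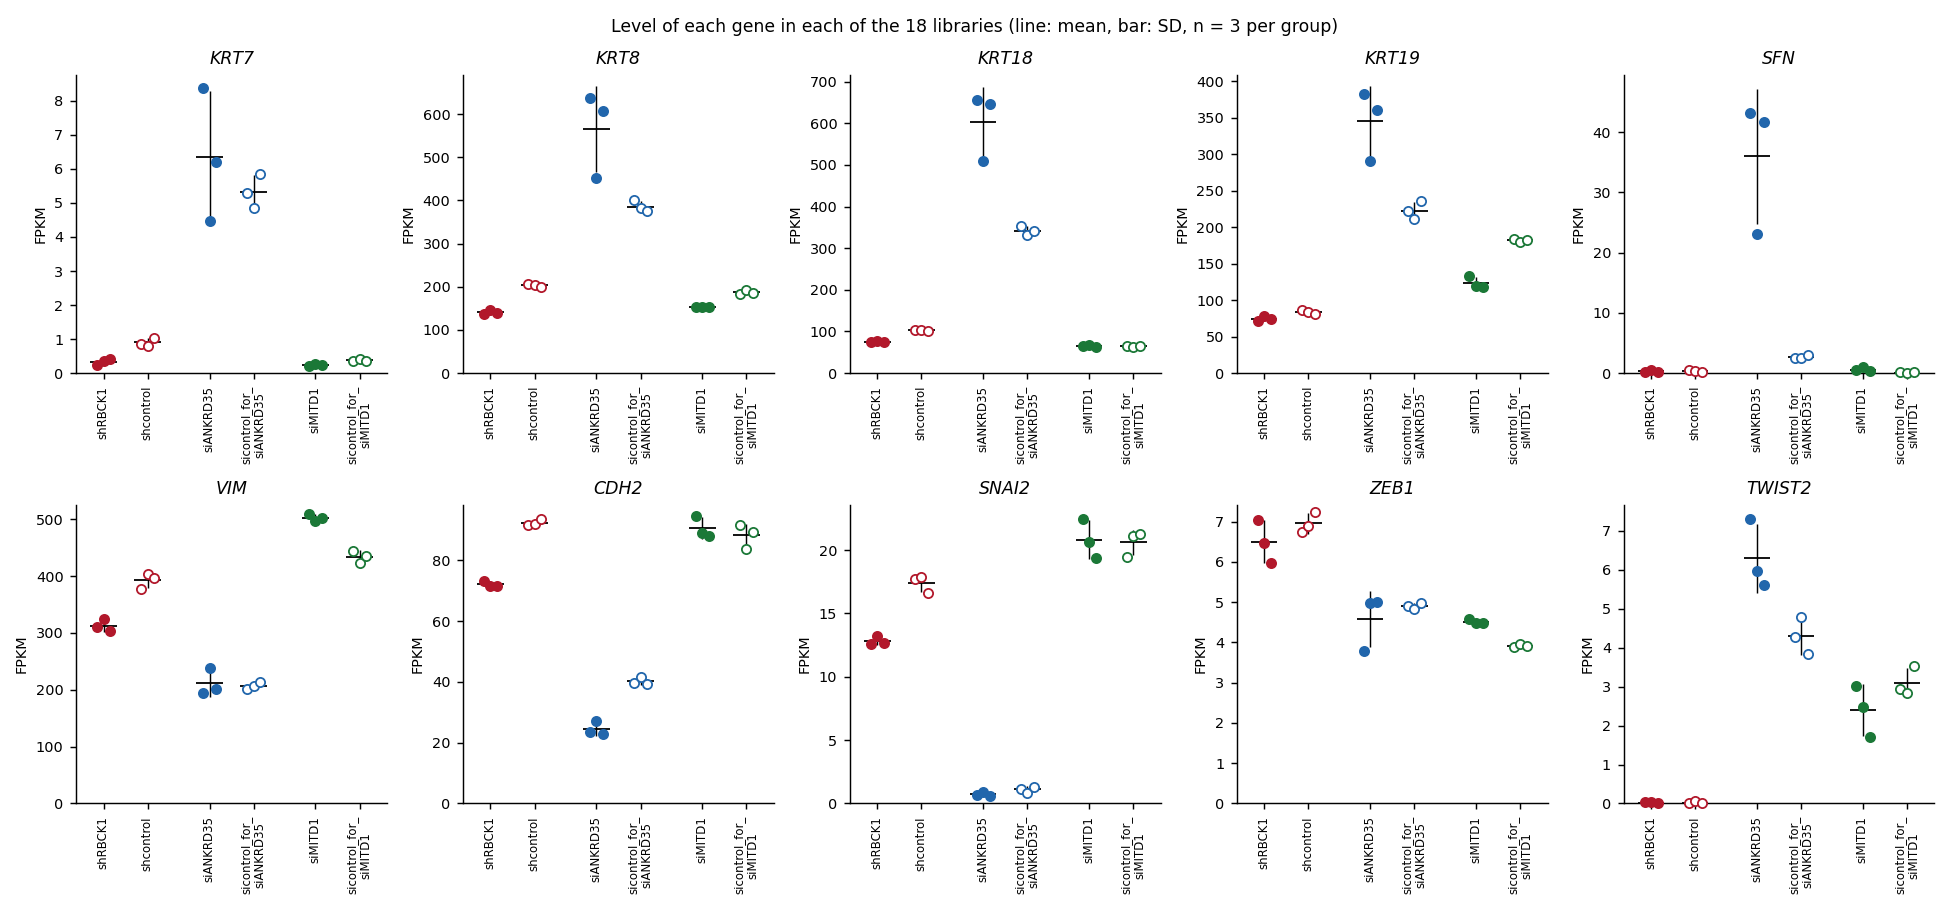
FPKM of each of the 10 genes in every library. Filled points are knockdown libraries, open points their controls, lines are means and bars SD (n = 3 per group). SNAI2 lies below 2 FPKM in the ANKRD35 table and above 12 elsewhere, and the 4 keratins are highest in the ANKRD35 table.

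After RBCK1 knockdown every called gene of the set was lower. Of the 10 genes, 7 passed the filter of at least 1 FPKM in 3 of 6 libraries, and 6 of these fell at a limma adjusted p under 0.05 while none rose: KRT8, KRT18, KRT19, VIM, CDH2 and SNAI2. Epithelial and mesenchymal genes were thus both among those that fell. Over all genes, 49.1% of 12227 tested passed the same threshold, and 24.9% were called lower. ZEB1 was the seventh and was not called.

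After ANKRD35 knockdown 9 genes were tested and 6 were called. KRT8, KRT18, KRT19, SFN and TWIST2 rose and CDH2 fell, while KRT7, VIM and ZEB1 were not called. CDH1, which is outside the set and was below the filter, was lower, with 21 reads in siANKRD35 libraries and 191 in controls. Of the 11890 genes tested, 36.3% were called, 19.4% as higher and 16.9% as lower. Without siANKRD35 replicate 2 the count was 7 of 9, KRT7 being the addition, and 55.6% of all genes tested were then called. Leaving out 1 control library instead gave 4 or 5 of the 9 and 18.6 to 19.3% of all genes.

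After MITD1 knockdown 8 genes were tested and 4 were called. KRT8 and KRT19 fell, and VIM and ZEB1 rose. KRT18, CDH2, SNAI2 and TWIST2 were not called. In that comparison 65.6% of 10415 genes were called, 30% as higher and 35.6% as lower, so the share of the set that was called was below the share of all genes.

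**Figure D2:**
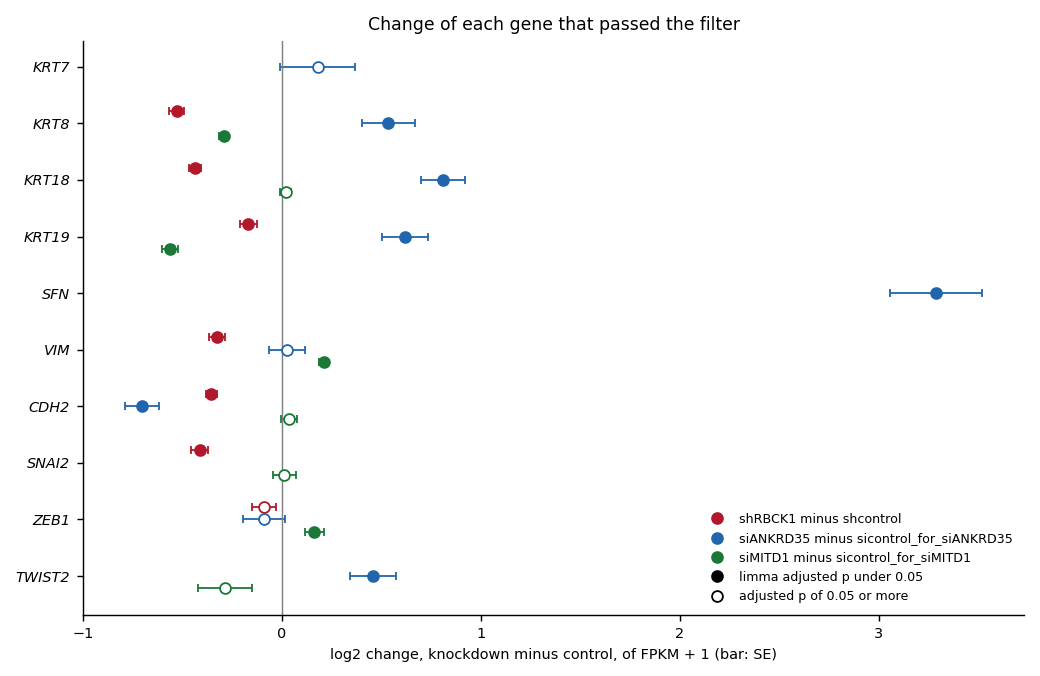
Log2 change (knockdown minus control, of FPKM + 1) of each gene that passed the filter, with its SE, in the 3 comparisons. Filled points have a limma adjusted p under 0.05. KRT8 and KRT19 lie right of 0 for siANKRD35 and left of 0 for shRBCK1 and siMITD1, and SFN lies at 3.29 for siANKRD35.

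KRT8, the type II keratin of simple epithelia, had the highest group means among the keratins of the set in the RBCK1 and MITD1 tables. It had 136.1, 147.2 and 138.7 FPKM in shRBCK1 libraries, against 206.3, 203.6 and 200.05 FPKM in shcontrol libraries. All 3 knockdown libraries lay below all controls, and the mean fell by 30.8% (limma log2 change -0.53, SE 0.0371, adjusted p = 3.15e-05). In siANKRD35 libraries KRT8 had 638.1, 452.3 and 606.9 FPKM, against 400.1, 382.5 and 375.5 FPKM in their controls. The groups did not overlap, but replicate 2 lay much nearer to the controls than the other 2 libraries did. The change was 0.54 on the log2 scale (SE 0.132, limma adjusted p = 0.0198) and 0.69 without that replicate. This call is fragile: leaving out any 1 of the 3 control libraries gave limma adjusted p of 0.0582 to 0.0727, leaving out siANKRD35 replicate 3 gave 0.069, and quantile normalization gave a log2 change of 0.17 (adjusted p = 0.248). KRT8 had 152.4, 153.4 and 152.2 FPKM in siMITD1 libraries, against 184.2, 192.3 and 185.2 FPKM in their controls. The 3 knockdown libraries lay close together and below every control (log2 change -0.29, SE 0.0247, limma adjusted p = 1.37e-05).

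KRT18, the type I partner of KRT8, followed it in the first 2 knockdowns but not in the third. It had 75.3, 77.7 and 74.7 FPKM in shRBCK1 libraries, against 103.6, 103.0 and 102.3 FPKM in shcontrol libraries. These groups were far apart relative to their spread, and the mean fell by 26.3% (log2 change -0.44, SE 0.029, limma adjusted p = 2.45e-05). The siANKRD35 libraries had 656.8, 509.4 and 645.4 FPKM, against 353.8, 330.7 and 341.0 FPKM in their controls. Every knockdown library exceeded every control, and the mean was 1.77 times the control mean (log2 change 0.81, SE 0.109, limma adjusted p = 0.00262; 0.93 without replicate 2). With quantile normalization it was 0.47. KRT18 had 65.8, 67.0 and 63.9 FPKM in siMITD1 libraries, against 65.7, 63.4 and 65.0 FPKM in their controls. Those groups overlapped, with a log2 change of 0.02 (SE 0.0293, limma adjusted p = 0.591). KRT8 and KRT18 lie head to head on chromosome 12 and share 1084 bases on opposite strands. The library kit was directional, but the strand used in counting was not given in the sources used here, so reads from the shared bases cannot be assigned with certainty.

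KRT19 is the type I keratin without a tail domain. It had 71.4, 77.8 and 74.1 FPKM in shRBCK1 libraries, against 86.6, 83.3 and 81.3 FPKM in shcontrol libraries. The groups did not overlap, although the highest shRBCK1 library and the lowest control were close, and KRT19 fell by 11.1%, the smallest change of the called genes of the set there (log2 change -0.17, SE 0.0412, limma adjusted p = 0.0121). With quantile normalization it was -0.07 (adjusted p = 0.0836). In siANKRD35 libraries KRT19 had 383.2, 290.8 and 361.2 FPKM, against 222.0, 211.1 and 235.5 FPKM in their controls. The 3 knockdown libraries were all higher (log2 change 0.62, SE 0.114, limma adjusted p = 0.00712). The value was 0.74 without replicate 2 and, with quantile normalization, 0.28 (adjusted p = 0.0733). KRT19 had 132.5, 119.1 and 118.3 FPKM in siMITD1 libraries, against 184.3, 179.6 and 182.9 FPKM in their controls. KRT19 fell by 32.4% with no overlap, the largest change among the tested genes of the set after MITD1 knockdown (log2 change -0.56, SE 0.0425, limma adjusted p = 7.5e-06).

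KRT7, a type II keratin of ducts and collecting epithelium, was low throughout and passed the filter in the ANKRD35 table only. It had 0.242, 0.347 and 0.420 FPKM in shRBCK1 libraries, against 0.860, 0.807 and 1.04 FPKM in shcontrol libraries. These values rest on 74 reads in the shRBCK1 libraries and 185 in shcontrol, a ratio of 0.370 after scaling for depth (95% interval 0.279 to 0.487, counting error only). In siMITD1 libraries KRT7 had 0.221, 0.254 and 0.226 FPKM, against 0.345, 0.410 and 0.361 FPKM in their controls. The ratio was 0.626 (0.418 to 0.930) on 44 reads in siMITD1 libraries and 67 in controls. In neither comparison did the groups overlap, and KRT7 was below the filter in both. With no filter on low values it was called lower in both, with log2 changes on FPKM + 1 of -0.51 for RBCK1 (limma adjusted p = 0.0198) and -0.15 for MITD1 (adjusted p = 0.0144). The siANKRD35 libraries had 8.37, 4.46 and 6.20 FPKM, against 5.30, 4.86 and 5.85 FPKM in their controls. Replicate 2 lay below every control and the other 2 above, giving a log2 change of 0.18 (SE 0.188, limma adjusted p = 0.485), or 0.38 (adjusted p = 0.0406) without replicate 2. KRT7 shares 2887 bases with KRT86 on the same strand, so some of its few reads may be counted for either gene.

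KRT18 stood higher relative to KRT8 in the knockdown libraries of all 3 tables, but in the ANKRD35 table this depended on the setting. The ratio of KRT18 to KRT8 FPKM within a library was 0.540 ± 0.0128 in shRBCK1 and 0.507 ± 0.00459 in shcontrol libraries. It was 1.07 ± 0.0492 in siANKRD35 libraries and 0.886 ± 0.0219 in their controls, and 0.430 ± 0.00886 in siMITD1 libraries and 0.346 ± 0.0143 in theirs (SD, n = 3 each). In each table all 3 knockdown libraries lay above all 3 controls, by 0.09, 0.28 and 0.31 on the log2 scale, with an exact two-sided permutation p of 0.1, the smallest that 3 against 3 can give. The shift was also taken as the difference of the fitted log2 changes of KRT18 and KRT8. With the correction for gene length and GC content it was 0.11 for RBCK1, 0.02 for ANKRD35 and 0.33 for MITD1. With quantile normalization it was 0.08, 0.31 and 0.31 in the same order. As deposited, but without siANKRD35 replicate 2, the shift was 0.24 for ANKRD35. Replicate 2 of siANKRD35, the lowest in both keratins, had the highest ratio of its group, 1.13. The ratio of KRT19 to KRT7, by contrast, was 231.9 ± 59.7 in shRBCK1 and 94.0 ± 13.8 in shcontrol libraries (exact permutation p = 0.1) and overlapped after MITD1 knockdown, at 530.7 ± 65.5 in siMITD1 libraries and 493.2 ± 49.8 in controls (exact permutation p = 0.5). In siANKRD35 libraries it was 56.4 ± 9.84, against 41.9 ± 1.58 in controls (exact permutation p = 0.1), a log2 difference of 0.42, or 0.30 without replicate 2. KRT7 was below the filter in the RBCK1 and MITD1 tables. It had 19, 24 and 31 reads in shRBCK1 and 60, 53 and 72 in shcontrol libraries. The ratio for RBCK1 thus rests on few KRT7 reads, while KRT19 fell by 11.1%.

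Pseudogenes of these keratins took few reads. Summed over the pseudogenes named after KRT8, reads were 1.02 to 1.13% of those of KRT8 in shRBCK1 libraries and 1.32 to 1.46% in shcontrol, 0.345 to 0.405% in siANKRD35 libraries and 0.514 to 0.521% in controls, and 0.912 to 1.15% in siMITD1 libraries and 0.563 to 0.649% in controls. For KRT18 the share was at most 0.844% and for KRT19 at most 0.0716% in any library. Reads that belong to a pseudogene but were counted for the parent cannot be seen in these files.

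SFN, also known as 14-3-3 sigma or stratifin, is the epithelial member of the 14-3-3 adapter family, a p53 target that restrains entry into mitosis, and it can bind keratins. It had 43.2, 23.1 and 41.7 FPKM in siANKRD35 libraries, against 2.53, 2.44 and 3.03 FPKM in their controls. Even replicate 2, the lowest knockdown library, was several times the highest control. The mean was 36.0 ± 11.2 FPKM in siANKRD35 libraries and 2.67 ± 0.317 in controls (SD, n = 3 each), a 13.5-fold difference, with a limma log2 change of 3.29 on FPKM + 1 (SE 0.23, adjusted p = 0.000541; 3.57 without replicate 2). It rests on 2479 reads in siANKRD35 libraries and 195 in controls. In the other tables SFN was below the filter. The shRBCK1 libraries had 0.237, 0.448 and 0.210 FPKM, against 0.578, 0.378 and 0.224 FPKM in shcontrol libraries. These groups overlapped, on 21 reads in shRBCK1 and 26 in shcontrol libraries. The siMITD1 libraries had 9, 21 and 6 reads, against 3, 1 and 2 reads in their controls. They did not overlap, and the ratio of 36 reads in siMITD1 libraries to 6 in controls was 5.72 after scaling for depth (95% interval 2.39 to 16.6, counting error only). With no filter on low values its log2 change on FPKM + 1 was 0.50 and was not called (limma adjusted p = 0.0603).

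Other genes of the same families did not share the size of the SFN difference. Of the 6 other 14-3-3 genes, 3 rose and none fell after ANKRD35 knockdown, with a median log2 change of 0.27, against 0.03 over all genes tested, but with quantile normalization the median was 0.02. Without siANKRD35 replicate 2, 3 rose and 1 fell, and 55.6% of all genes tested were then called. With every library kept, the shares of all genes called higher and lower were 19.4% and 16.9% for ANKRD35. They were 24.1% and 24.9% for RBCK1, and 30% and 35.6% for MITD1. YWHAE averaged 235.7 ± 9.91 FPKM in siANKRD35 libraries and 153.6 ± 2.10 in controls (log2 change 0.61, limma adjusted p = 0.00143), and YWHAQ and YWHAH rose by 0.36 and 0.29. After RBCK1 knockdown 2 of 6 rose, 1 fell and 3 were not called (median 0.01), YWHAH having the smallest adjusted p (-0.30) before YWHAB (0.15) and YWHAQ (0.12). After MITD1 knockdown 3 rose, 2 fell and 1 was not called (median 0.07): YWHAG rose by 0.33, and YWHAH and YWHAQ had log2 changes of -0.70 and -0.23. Among 22 other p53 targets none rose, 9 fell and 13 were not called after ANKRD35 knockdown, at a median of -0.29, whereas 4 rose and 11 fell without siANKRD35 replicate 2. MDM2, the p53 inhibitor, averaged 13.3 ± 2.69 FPKM in siANKRD35 libraries and 25.7 ± 0.815 in controls (-0.92), and BTG2 and the death receptor gene TNFRSF10B changed by -0.84 and -0.68. The cell cycle inhibitor CDKN1A, named after its values were seen, averaged 290.9 ± 26.2 FPKM in siANKRD35 libraries and 319.1 ± 2.59 in controls and was not called (limma adjusted p = 0.228). After RBCK1 knockdown 5 of 19 tested p53 targets rose and 9 fell (median 0.05): GADD45A, CDKN1A and SESN2 fell by 1.98, 0.57 and 0.74 on the log2 scale. After MITD1 knockdown 4 of 21 rose and 10 fell (median -0.11), with SESN2 at 0.79, CCNG1 at 0.33 and PLK3 at -0.56.

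VIM, the mesenchymal intermediate filament, was higher than every keratin of the set in the RBCK1 and MITD1 tables and lower than KRT8, KRT18 and KRT19 in the ANKRD35 table, per kilobase. It had 310.4, 324.3 and 302.8 FPKM in shRBCK1 libraries, against 377.7, 403.0 and 396.1 FPKM in shcontrol libraries. All shRBCK1 libraries were lower, and the mean fell by 20.4% (log2 change -0.33, SE 0.0398, limma adjusted p = 0.000481). With quantile normalization the change was -0.10 (adjusted p = 0.129). In siMITD1 libraries VIM had 509.1, 495.9 and 502.3 FPKM, against 444.3, 422.9 and 435.8 FPKM in their controls. The groups did not overlap, and VIM was 15.7% higher (log2 change 0.21, SE 0.0245, limma adjusted p = 9.23e-05). In siANKRD35 libraries it had 194.5, 238.9 and 201.7 FPKM, against 201.8, 206.0 and 213.2 FPKM in their controls. Replicates 1 and 3 lay below all controls and replicate 2 above them, so no direction was resolved (log2 change 0.03, SE 0.0921, limma adjusted p = 0.844).

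The VIM to KRT8 ratio moved in the same direction in the RBCK1 and MITD1 knockdowns although VIM itself did not. It was 2.22 ± 0.0518 in shRBCK1 and 1.93 ± 0.0859 in shcontrol libraries, and 3.29 ± 0.0545 in siMITD1 libraries and 2.32 ± 0.110 in their controls (SD, n = 3 each; exact permutation p = 0.1 in both). In siANKRD35 libraries it was 0.388 ± 0.122, against 0.537 ± 0.0318 in controls, with replicate 2 at 0.528 inside the control range (exact permutation p = 0.2). The log2 difference was -0.51, or -0.75 without that replicate. Because these are bulk libraries, fewer cells of one kind and less RNA per cell cannot be told apart.

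**Figure D3:**
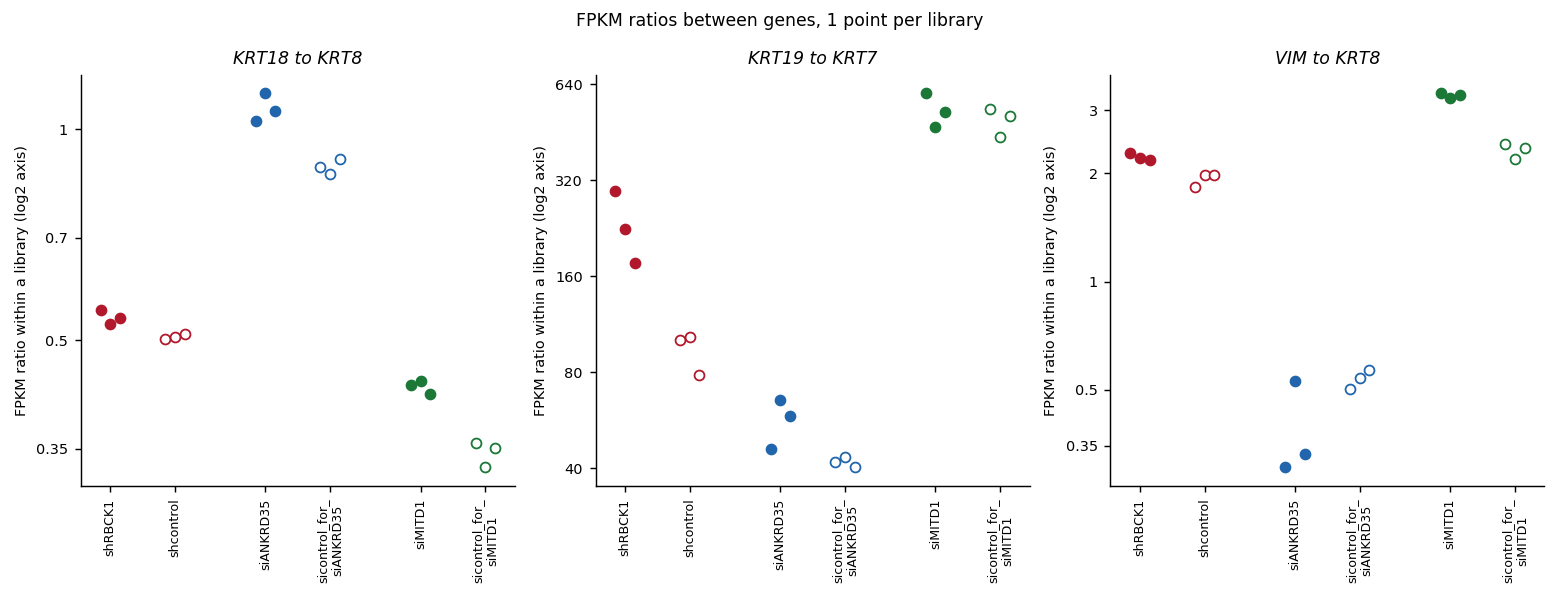
Ratios of KRT18 to KRT8, KRT19 to KRT7 and VIM to KRT8 FPKM within each library, on log2 axes. Filled points are knockdown libraries and open points their controls. For KRT18 to KRT8 all knockdown libraries lie above the controls of their own table.

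CDH2, which encodes N-cadherin, was far above CDH1 in all groups. It had 73.3, 71.6 and 71.4 FPKM in shRBCK1 libraries, against 91.7, 92.0 and 93.6 FPKM in shcontrol libraries. The groups were tight and separate, with means of 72.1 ± 1.05 FPKM in shRBCK1 and 92.4 ± 1.02 in shcontrol libraries (log2 change -0.35, SE 0.0281, limma adjusted p = 5.85e-05). In siANKRD35 libraries it had 23.4, 27.0 and 22.8 FPKM, against 39.5, 41.6 and 39.5 FPKM in their controls. CDH2 fell by 39.3%, the single called fall of the set in that comparison (log2 change -0.70, SE 0.0845, limma adjusted p = 0.00192; -0.77 without replicate 2). In siMITD1 libraries CDH2 had 94.6, 89.0 and 88.0 FPKM, against 91.4, 83.8 and 89.2 FPKM in their controls. Those groups overlapped (log2 change 0.04, SE 0.0405, limma adjusted p = 0.434).

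SNAI2 encodes Slug, a zinc finger repressor of CDH1. It had 12.6, 13.2 and 12.7 FPKM in shRBCK1 libraries, against 17.7, 17.9 and 16.6 FPKM in shcontrol libraries. All 3 shRBCK1 libraries were lower, and the mean fell by 26.4% (log2 change -0.41, SE 0.0414, limma adjusted p = 0.000185). In siMITD1 libraries it had 22.5, 20.6 and 19.4 FPKM, against 19.5, 21.1 and 21.3 FPKM in their controls. These groups overlapped (log2 change 0.01, SE 0.0571, limma adjusted p = 0.86). The siANKRD35 libraries had 0.634, 0.879 and 0.625 FPKM, against 1.15, 0.845 and 1.33 FPKM in their controls. It was below the filter there, replicate 2 overlapped the controls, and the ratio of 125 reads in siANKRD35 libraries to 207 in controls was 0.646 after scaling for depth (95% interval 0.513 to 0.811, counting error only).

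ZEB1, another zinc finger repressor of epithelial genes, lay between 3.78 and 7.24 FPKM in every library. It had 4.58, 4.47 and 4.48 FPKM in siMITD1 libraries, against 3.87, 3.96 and 3.92 FPKM in their controls. The groups did not overlap, and the 15.1% rise was called (log2 change 0.16, SE 0.0469, limma adjusted p = 0.0136), but after correction for gene length and GC content it was 0.10 (adjusted p = 0.109). In shRBCK1 libraries it had 7.05, 6.47 and 5.98 FPKM, against 6.74, 6.89 and 7.24 FPKM in shcontrol libraries. One shRBCK1 library lay among the controls (log2 change -0.09, SE 0.0605, limma adjusted p = 0.263), but with the length and GC correction ZEB1 was called lower (-0.16, adjusted p = 0.0237). The siANKRD35 libraries had 3.78, 4.97 and 5.00 FPKM, against 4.89, 4.83 and 4.98 FPKM in their controls, and the groups overlapped (log2 change -0.09, SE 0.105, limma adjusted p = 0.546). ZEB1 overlaps the antisense gene ZEB1-AS1, which reached 1.47, 2.72 and 3.12 FPKM in the RBCK1, ANKRD35 and MITD1 tables. On its own strand it overlaps the transcribed pseudogene SPTLC1P1 over 261 bases, which reached 2.39, 6.60 and 1.25 FPKM in the same order.

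TWIST2 encodes a basic helix-loop-helix factor. It had 7.30, 5.97 and 5.61 FPKM in siANKRD35 libraries, against 4.26, 4.79 and 3.84 FPKM in their controls. All knockdown libraries were higher (log2 change 0.46, SE 0.115, limma adjusted p = 0.0207; 0.49 without replicate 2), but with the length and GC correction the change was 0.21 (adjusted p = 0.132), and it lost the call when control replicate 1 or 3 was left out (0.0729 and 0.0833). In siMITD1 libraries it had 3.02, 2.49 and 1.70 FPKM, against 2.95, 2.83 and 3.52 FPKM in their controls. One knockdown library exceeded 2 of the controls, and the change of -0.29 was not called (SE 0.137, limma adjusted p = 0.0972). Without siMITD1 replicate 1 it was -0.41 (adjusted p = 0.02). In the RBCK1 table TWIST2 had 2 reads in the shRBCK1 libraries and 2 in shcontrol, too few to compare.

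Gene length moved with the changes of the ANKRD35 knockdown. Across the 11890 genes tested, the log2 change had a Spearman correlation of -0.413 with gene length, and the RBCK1 and MITD1 knockdowns gave 0.027 and 0.089, as a description across genes that share libraries. SFN, TWIST2, KRT19 and KRT18 have listed lengths of 1320, 1878, 2336 and 3218 bases, all under the median of 4567 bases among the genes tested, whereas KRT8, at 6881 bases, is longer. With the length and GC correction the log2 changes were 3.06 for SFN, 0.72 for KRT18, 0.46 for KRT19, 0.70 for KRT8 and -0.71 for CDH2, all still called, and TWIST2 was not.

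**Figure D4:**
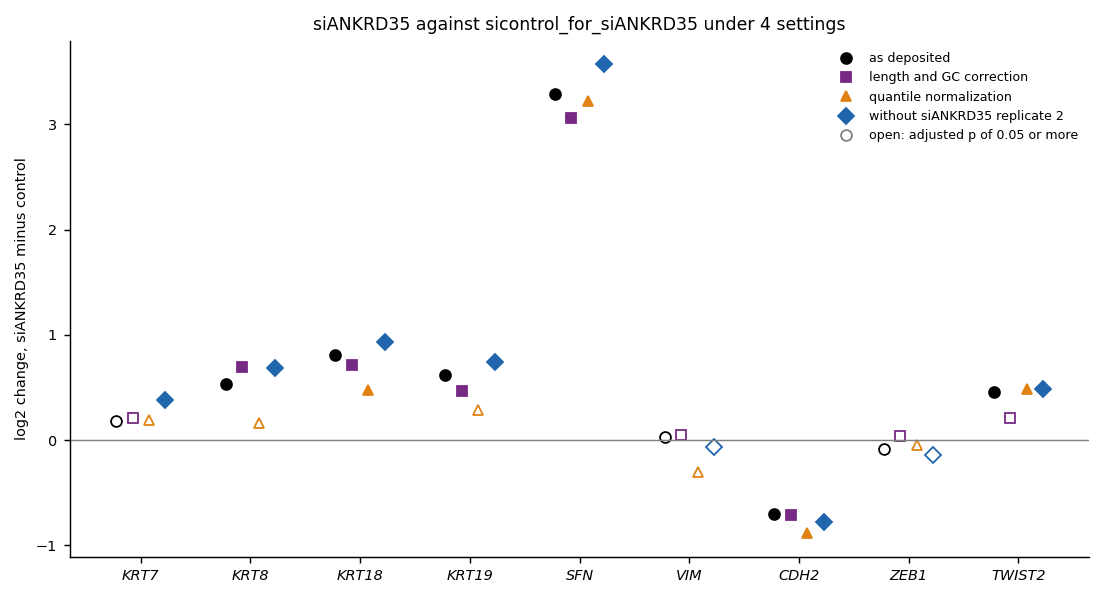
Log2 change (siANKRD35 minus sicontrol_for_siANKRD35) of the 9 tested genes as deposited, with length and GC correction, with quantile normalization and without siANKRD35 replicate 2. Filled points have a limma adjusted p under 0.05. SFN, KRT18 and CDH2 are filled under all 4, while KRT8, KRT19 and TWIST2 are open under 1 of them.

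Among 20 other keratins few were expressed. Values in parentheses beside list genes are limma log2 changes, and mean levels are ± SD (n = 3 per group). Of all genes, 24.1% were called higher and 24.9% lower for RBCK1. The shares were 19.4% and 16.9% for ANKRD35, and 30% and 35.6% for MITD1. They stand beside the counts of every list below. After RBCK1 knockdown 5 of these keratins were tested, of which 1 rose and 3 fell (median log2 change -0.15, against 0.01 over all genes). KRT10 averaged 16.8 ± 1.18 FPKM in shRBCK1 and 10.97 ± 0.322 in shcontrol libraries (0.57), while KRT17, a keratin of basal cells, averaged 0.254 ± 0.0870 in shRBCK1 and 1.49 ± 0.421 in shcontrol libraries (-0.98). The hair keratin KRT81 averaged 17.7 ± 1.29 in shRBCK1 and 26.7 ± 1.85 in shcontrol libraries (-0.57). After ANKRD35 knockdown 4 were tested, with 1 higher, 1 lower and a median of 0.15, which was -0.07 with the length and GC correction. KRT15, a type I keratin of basal cells, averaged 5.23 ± 0.551 FPKM in siANKRD35 libraries and 2.02 ± 0.0724 in controls (1.04, limma adjusted p = 0.000855), and KRT80 averaged 39.0 ± 4.97 in siANKRD35 libraries and 76.2 ± 3.63 in controls (-0.95). KRT10 was not called there (0.29). So keratins, like all genes, were called in both directions in that knockdown. After MITD1 knockdown 4 were tested, 2 rose and 2 fell (median -0.09, against -0.03 over all genes): KRT10 and KRT80 each rose by 0.47, and KRT81 averaged 5.26 ± 1.02 FPKM in siMITD1 libraries and 13.6 ± 0.952 in controls (-1.24).

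A list of 13 partners and binders of KRT8 and KRT18 held desmosomal and plakin genes, whose proteins anchor keratin filaments. It also held TCHP and PNN. Of 9 tested after ANKRD35 knockdown, none rose and 5 fell (median -0.34, or -0.21 with the length and GC correction). The cytolinker PLEC averaged 5.50 ± 0.961 FPKM in siANKRD35 libraries and 12.7 ± 0.998 in controls (-1.09), and the desmosomal genes DSP and DSG2 changed by -0.49 and -0.53. After MITD1 knockdown 3 of 6 rose and 1 fell (median 0.03). DSG2 averaged 100.7 ± 2.38 FPKM in siMITD1 libraries and 55.0 ± 1.83 in controls (0.86, limma adjusted p = 2.01e-07), PLEC rose by 0.36, and PNN, which encodes pinin, changed by -0.40. After RBCK1 knockdown PNN was the single called gene of 6 (-0.47), with a median of -0.01, and DSG2 (0.11) and TCHP (-0.06) were not called.

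Among 37 other epithelial junction and identity genes, 4 of 12 tested rose and 3 fell after RBCK1 knockdown (median 0.14). Among all genes, shares called higher and lower were 24.1% and 24.9% for RBCK1, 19.4% and 16.9% for ANKRD35, and 30% and 35.6% for MITD1. The tight junction gene CLDN1 averaged 30.4 ± 1.04 FPKM in shRBCK1 and 59.7 ± 0.700 in shcontrol libraries (-0.95), while CD24 averaged 194.8 ± 5.07 in shRBCK1 and 124.2 ± 2.65 in shcontrol libraries (0.65) and CDH6 rose by 0.43. After ANKRD35 knockdown 1 of 15 rose and 6 fell (median -0.27): the tight junction gene OCLN rose by 0.39, and CD24 and the polarity gene CRB3 changed by -0.96 and -0.59. After MITD1 knockdown 4 of 13 rose and 7 fell (median -0.27), with F11R at 0.46, the epithelial factor gene ELF3 at -0.48 and CRB3 at -0.95. Among other cadherins and catenins, 3 of 6 rose and none fell after RBCK1 knockdown (median 0.12; CTNNB1 0.25, CTNND1 0.18, CDH13 0.16). None of 5 rose and 4 fell after ANKRD35 knockdown (median -0.39, or -0.19 with the length and GC correction; CDH13 -0.65, CDH4 -0.50, CTNND1 -0.39). After MITD1 knockdown 2 of 4 rose and 2 fell (median -0.01; CTNNA1 0.33, CTNNB1 -0.34, CDH13 -0.26).

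Mesenchymal genes, like all genes, were called in both directions in each knockdown. Of all genes, 24.1% rose and 24.9% fell for RBCK1, 19.4% and 16.9% for ANKRD35, and 30% and 35.6% for MITD1. After RBCK1 knockdown 5 of 23 tested rose and 11 fell (median -0.07). MYL9, a myosin light chain gene, averaged 12.85 ± 0.170 FPKM in shRBCK1 and 22.9 ± 0.619 in shcontrol libraries (-0.79, limma adjusted p = 2.67e-06), and NT5E changed by -0.51. After MITD1 knockdown 8 of 24 rose and 10 fell (median -0.06). The matrix gene SPARC averaged 157.2 ± 2.51 FPKM in siMITD1 libraries and 288.6 ± 6.14 in controls (-0.87). FSTL1 averaged 46.6 ± 0.512 in siMITD1 libraries and 122.4 ± 0.879 in controls (-1.38). After ANKRD35 knockdown 3 of 24 rose and 6 fell (median -0.14). Fibronectin, FN1, averaged 23.9 ± 2.72 FPKM in siANKRD35 libraries and 67.5 ± 0.818 in controls (-1.47, limma adjusted p = 0.000422), TNC changed by -0.94, and the collagen cross-linking enzyme gene LOX rose by 0.54.

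Other transcription factor genes linked to epithelial-mesenchymal transition, and their regulators, were more often lower than higher in each knockdown: 2 rose and 7 fell of 15 for RBCK1 (median -0.20), none rose and 6 fell of 12 for ANKRD35 (median -0.24), and 3 rose and 8 fell of 14 for MITD1 (median -0.26). Of all genes tested, 24.1% rose and 24.9% fell for RBCK1, 19.4% and 16.9% for ANKRD35, and 30% and 35.6% for MITD1. KLF4, which supports epithelial genes, averaged 8.21 ± 0.492 FPKM in shRBCK1 and 27.0 ± 1.31 in shcontrol libraries (-1.61), and SOX9 and GATA6 changed by -0.57 and -0.45. In siANKRD35 libraries KLF4 changed by -0.85, GATA6 by -0.67 and ZEB2, the ZEB1 paralog, by -0.68, averaging 1.77 ± 0.135 FPKM in siANKRD35 libraries and 3.43 ± 0.122 in controls. In siMITD1 libraries TCF3 rose by 0.81 and KLF4 by 0.69, and HMGA2 changed by -0.92. Of the other intermediate filament and lamin genes, 3 of 5 rose and 1 fell for RBCK1 (median 0.38; SYNM 0.62, LMNB1 0.48, LMNB2 0.38). None of 7 rose and 2 fell for ANKRD35 (median -0.02; NEFL -0.73, SYNM -0.49, LMNB1 not called at 0.11), and 2 of 5 rose and 2 fell for MITD1 (median 0.02; LMNA 0.40, LMNB1 -0.42, NEFL -0.33).

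List medians moved with the setting. With quantile normalization the mesenchymal list had a median of 0.01 for RBCK1 and -0.25 for ANKRD35, the filament and lamin list -0.25 for ANKRD35, and the epithelial junction list -0.14 for ANKRD35. With the length and GC correction the epithelial junction median for MITD1 was -0.17, and for ANKRD35 the filament and lamin median was 0.06 and the mesenchymal median -0.08. Without siANKRD35 replicate 2, where 55.6% of all genes tested were called, 2 of 14 tested epithelial junction genes rose and 7 fell. In that setting 4 of 23 mesenchymal genes rose and 9 fell, and 1 of 12 transcription factor genes rose and 6 fell. The keratin, keratin partner, cadherin and filament lists kept their counts of higher and lower genes there.

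**Figure D5:**
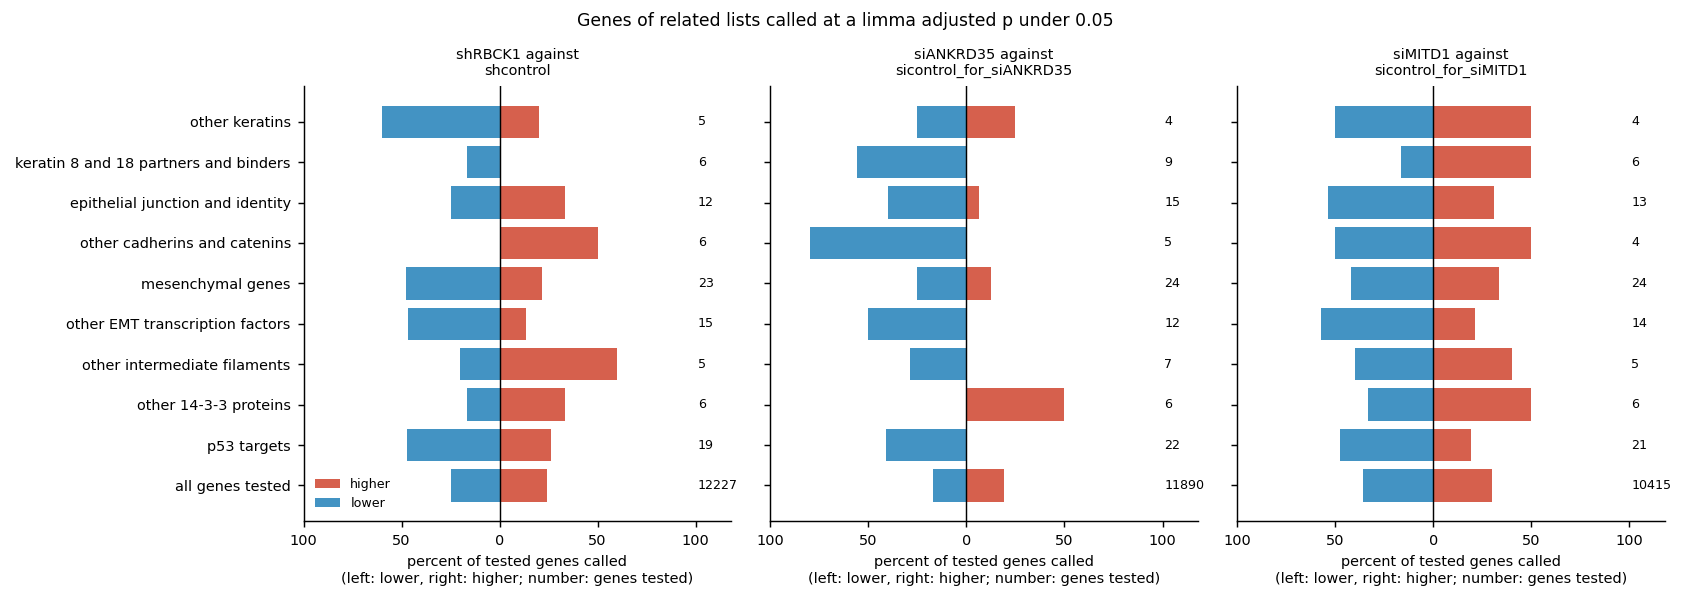
Percent of the tested genes of 9 related lists called higher (right) or lower (left) at a limma adjusted p under 0.05, with the number tested at the right of each bar and all genes tested in the bottom row. Of all genes, 24.1% and 24.9% were called higher and lower for shRBCK1, 19.4% and 16.9% for siANKRD35, and 30% and 35.6% for siMITD1.

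Most markers of other cells were low, EGFL7 being an exception, and their part in these results was not tested. The summed level of 8 fibroblast markers was 4.88 to 5.56 FPKM in shRBCK1 and 5.06 to 5.68 in shcontrol libraries, 0.293 to 0.475 in siANKRD35 libraries and 0.808 to 1.01 in controls, and 5.89 to 6.90 in siMITD1 libraries and 6.24 to 7.43 in controls. For RBCK1, 1 of 2 tested rose (LUM 0.25) and 1 fell (PDPN -0.35), for ANKRD35 none was tested, and for MITD1 none of 3 was called (LUM -0.24, PDPN 0.20, COL1A1 -0.03). Of 7 endothelial markers EGFL7 was the single one tested. It was not called for RBCK1 (-0.10), rose for ANKRD35 by 0.72 (41.4 ± 12.8 FPKM in siANKRD35 libraries and 24.0 ± 3.53 in controls) and changed by -0.75 for MITD1. Of 7 blood cell markers LAPTM5 was the single one tested, at 0.42 for RBCK1 and -1.20 for MITD1, both called, and none was tested for ANKRD35. Their sums were 2.90 to 3.93 FPKM in shRBCK1 and 2.34 to 2.98 in shcontrol libraries, 1.27 to 2.32 in siANKRD35 libraries and 1.36 to 1.90 in controls, and 1.21 to 1.73 in siMITD1 libraries and 4.35 to 5.09 in controls. Of 10 urothelial and distal tubule markers GATA3 alone was tested, lower for RBCK1 (-0.32) and not called for MITD1 (-0.13), with none tested for ANKRD35.

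Markers of the proximal tubule and of renal carcinoma lines changed in part. For RBCK1, 2 of 4 tested rose (PAX8 0.41 among them) and PAX2 was not called (-0.11). For ANKRD35, 1 of 4 fell (PAX2 -0.74), and PAX8 was not called (-0.13). For MITD1, 3 of 4 fell (PAX8 -0.88 and PAX2 -0.43 among them). Of 6 markers of an embryonic kidney line, 1 of 2 tested fell in each table: GATA3 for RBCK1 (-0.32; NEFL 0.04, not called), NEFL for ANKRD35 (-0.73; INA 0.05, not called), and NEFL for MITD1 (-0.33; GATA3 -0.13, not called).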

How the data were processed

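RNA-seq of 18 libraries of 786-O cells was used. Per the labels' protocols, total RNA went through a column kit, and libraries were prepared with a directional kit. The FPKM values were used as the authors deposited them, 1 table per knockdown. Per the submitters' processing notes the build was mm10, a mouse build, but 58735 of 58735 gene identifiers of the RBCK1 table have the start and end that GENCODE 29 gives on the human GRCh38. For the aligner, the counting tool and the counting strand, nothing is given in the sources used here. A further 6 value columns of the ANKRD35 table match no sample and were left out.

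Each comparison was fitted with limma 3.58.1 (R 4.3.3) with a trended variance on log2(FPKM + 1), on its own 6 libraries and with no replicate block, over genes that reached 1 FPKM in 3 or more of the 6 libraries. Tests were two-sided, adjusted by Benjamini-Hochberg over all genes tested and called under 0.05. A log2 change on FPKM + 1 understates the change of low genes. Fold and percent differences are of mean FPKM. Reads were recovered from FPKM and gene length, with a tolerance of 0.01 reads. All genes of the RBCK1 and ANKRD35 tables came out whole, and so did 91.7% of the 18083 genes above 0 in the MITD1 table, where SNAI2 and TWIST2 did not. Read ratios carry exact 95% binomial intervals for counting error only, since reads without molecular identifiers are not independent molecules. Ratios within a library were tested with an exact permutation test, 3 comparisons for each of 3 ratios, with no adjusted p since none can fall under 0.1.

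The members and the 16 gene lists were chosen with earlier results of these data known. The lists are those named in the results and the series genes RBCK1, ANKRD35, MITD1 and ANXA1, of which 2 of 3 tested fell for RBCK1, 1 of 4 for ANKRD35 and 2 of 3 for MITD1, where RBCK1 rose (log2 change 0.52). Named genes were the 10 members, the series genes and, of each list, the 3 tested genes with the smallest adjusted p per comparison. Some genes that this rule names are not reported here. Alternatives were another pseudocount (0.1), no filter or a filter in all libraries, median-of-ratios scaling, quantile normalization, a length and GC correction (mgcv 1.9.3), voom on recovered reads, a replicate block, and leaving out each library. The script was tested on simulated data. Promoter sequences came from RefSeq.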

Additional observations from a re-analysis of the deposited data

Results flagged for a closer look

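In all, 6 pairs of changes were singled out because all libraries of 1 knockdown lay above their controls while all libraries of another lay below theirs. The tables were normalized separately, and none of these differences was tested. How many pairs over all genes meet the same rule is not given, so these 6 cannot be called unusual. Of all genes tested, 49.1% were called for RBCK1, 36.3% for ANKRD35 and 65.6% for MITD1, in both directions. KRT8 differed by 1.06 on the log2 scale between the ANKRD35 and RBCK1 comparisons (0.54 and -0.53) and by 0.83 between the ANKRD35 and MITD1 comparisons (0.54 and -0.29). KRT18 differed by 1.25 between ANKRD35 and RBCK1 (0.81 and -0.44). KRT19 differed by 0.79 between ANKRD35 and RBCK1 (0.62 and -0.17) and by 1.18 between ANKRD35 and MITD1 (0.62 and -0.56). VIM differed by 0.54 between MITD1 and RBCK1 (0.21 and -0.33). With quantile normalization the 6 differences, in the same order, were 0.57, 0.45, 0.80, 0.35, 0.85 and 0.27.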

How the results depend on the processing

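Of the values of the 10 genes under alternatives, 329 kept direction and call, 15 lost the call, 3 gained it and 11 changed sign. The number of the 10 genes called ranged from 4 to 7 for RBCK1 and for ANKRD35 and from 3 to 5 for MITD1. With the replicate block, 6 were called for RBCK1, 6 for ANKRD35 and 4 for MITD1, and of all genes 5347, 4139 and 6859 for RBCK1, ANKRD35 and MITD1. The deviations of same-numbered libraries correlated at -0.007 to 0.028, -0.087 to 0.179 and -0.001 to 0.105 in these tables, not over 0.1 in every pair, so the numbers were not taken as a pairing. Leaving out 1 library moved the count of all genes called for ANKRD35 between 2157 and 6518, the highest without siANKRD35 replicate 2 and the lowest without control replicate 2. On recovered reads, voom put 61.1% of RBCK1 calls and 38.5% of ANKRD35 calls in the higher direction, against 49.2% and 53.5% as reported.

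Sign changes were as follows, and their cause was not tested. For ANKRD35, VIM was -0.31 with quantile normalization and -0.064 with voom, and -0.063 to 0.085 with 1 library left out, lowest without siANKRD35 replicate 2. ZEB1 was 0.041 with the length and GC correction, alone and with the block, and -0.14 to 0.020 with 1 library left out. KRT7 was -0.013 to 0.38 with 1 library left out, lowest without siANKRD35 replicate 1. ANXA1 was -0.10 and LMNB1 -0.063 with quantile normalization. PAX8 was 0.066 with the length and GC correction, alone and with the block, and -0.22 to 0.041 with 1 library left out. INA was -0.086 with quantile normalization, -0.047 with the length and GC correction, alone and with the block, -0.039 with voom, and -0.046 to 0.12 with 1 library left out. For MITD1, SNAI2 was -0.016 with the length and GC correction, alone and with the block, and -0.041 to 0.061 with 1 library left out, and COL1A1 was 0.026 with that correction, alone and with the block. For RBCK1, MITD1 was 0.016 with voom.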
